A study of Mus musculus with 4 samples.

Results

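The genes described here are the amino acid and peptide transporter genes of the mouse small intestine. They were taken as every gene symbol on the array that begins with Slc1a, Slc3a, Slc6a, Slc7a, Slc15a, Slc36a, Slc38a or Slc43a, which gave 69 of the 19938 genes with a probe set of their own. Of the 69, 48 passed the filter on low values and were fitted, and 21 were not. Slc6a19os and Slc7a6os entered through the spelling of their symbols and are not transporter genes themselves, although they lie beside Slc6a19 and Slc7a6.

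The samples were small intestines of C57BL/6 mice, and their total RNA, labelled with biotin, was read on 4 Affymetrix arrays. The mice carried a CFLARs transgene (CFLARs Tg, 2 arrays, with titles ending in XCFX and XCFY) or were wild-type (2 arrays, XX and XY). CFLARs denotes a short variant of cFLIP, the Cflar product that regulates caspase-8. By its title the series concerns preterm mice, ileitis and the necroptosis of epithelial cells of the intestine, and the design asks how gene expression in the intestine differs between the genotypes. The age of the mice, the stretch of small intestine, the promoter that drives the transgene and the number of animals behind an array are not given in the sources used here. CFLARs Tg replicate 1 is the XCFX array and replicate 2 the XCFY array, and wild-type replicate 1 is the XX array and replicate 2 the XY array. All p-values rest on the spread between these arrays, part of which may be technical. In each group replicate 1 is of XX type and replicate 2 of XY type by the titles. Any difference between the sexes is therefore part of that spread and cannot be told apart from it.

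The lumen of the small intestine delivers protein as free amino acids and as short peptides. Enterocytes take both up through transporters of the brush border, the apical membrane: SLC15A1 (PEPT1) carries di- and tripeptides with protons, and SLC6A19 (B0AT1) carries neutral amino acids with sodium. Exit into the blood runs through exchangers of the basolateral membrane, which pair a light chain of the SLC7 family with the heavy chain SLC3A2. Other members serve the cell itself. SLC7A5, SLC7A11 and SLC7A1 bring in large neutral amino acids, cystine and cationic amino acids, and their genes are known targets of ATF4, the transcription factor of the amino acid and stress response. SLC38A9, SLC36A1 and SLC15A3 sit in the lysosomal membrane.

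The sequences below show where 2 motifs occur in the set: in Slc7a11 and Slc1a4, which were higher in CFLARs Tg, and in Slc7a7 and Slc3a1, which did not pass the test. They are stretches of RefSeq promoters (GRCm38.p6, 5′ to 3′ on the strand of the gene) in which a searched motif was found, shown in capitals. The motifs were TGATGNAA, the core of the C/EBP-ATF response element through which ATF4 acts, and CAAAGTCCA, a motif bound by the enterocyte factor HNF4, on both strands and without overlap between them.
Slc7a11: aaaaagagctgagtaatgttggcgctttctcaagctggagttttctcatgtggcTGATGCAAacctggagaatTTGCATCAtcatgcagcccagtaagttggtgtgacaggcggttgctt
Slc1a4: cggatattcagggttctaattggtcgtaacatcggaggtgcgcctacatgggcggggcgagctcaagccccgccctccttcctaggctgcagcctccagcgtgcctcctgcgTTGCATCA
Slc7a7: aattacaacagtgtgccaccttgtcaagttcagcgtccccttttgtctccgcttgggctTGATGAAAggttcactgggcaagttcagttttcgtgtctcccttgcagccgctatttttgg
Slc3a1: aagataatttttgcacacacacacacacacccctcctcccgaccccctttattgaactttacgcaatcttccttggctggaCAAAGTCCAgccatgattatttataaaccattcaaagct

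The Slc7a11 stretch lies at chr3:50443614-50443733 on the minus strand, the Slc1a4 stretch at chr11:20332710-20332829 on the minus strand, the Slc7a7 stretch at chr14:54418025-54418144 on the minus strand and the Slc3a1 stretch at chr17:85028227-85028346 on the plus strand. A promoter entry, which spans 250 bases before to 50 after the start of a gene, was matched for 51 members. The C/EBP-ATF core was present in 5 of these 51, against 4.51% of all 27025 genes with an entry, and the HNF4 motif in 1 of 51, against 0.555%. Slc7a11 held the core in both orientations, with first bases 66 and 47 bases before its start, and Slc1a4 held it across its start. Slc7a7 held it in more than 1 place, of which 1 is shown. Among the 4 members with an entry that rose, 1 held the core (Slc1a4), and among the 8 with an entry that fell, 0 did. Slc7a7 did not pass the test, and Slc15a5 and Slc6a21, the other holders, had low values and were not fitted.

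In CFLARs Tg intestine, members of the set changed in both directions. The falls were those of the brush border genes Slc6a20a, Slc15a1, Slc6a19 and Slc36a1, the basolateral gene Slc7a8, the lysosomal genes Slc38a7 and Slc38a9, and Slc7a4 and Slc6a19os. The rises were those of Slc15a3, Slc7a5, Slc6a14, Slc7a1, Slc1a5, Slc7a6 and Slc1a4, and Slc7a11, which was too low in wild-type to pass the filter, had a larger difference than any of them. Of the 48 fitted members, 7 rose and 9 fell by limma with Benjamini-Hochberg adjustment over 13956 genes. Of all fitted genes, 8.44% rose and 10.9% fell, 19.3% together. An unadjusted p under 0.05 (limma) was found in 30 of the 48 members and in 5457 of all 13956 fitted genes. Counts of unadjusted p from this fit, given below, are to be read beside that second share. Counts of rises and falls from this fit in the families and lists below are to be read beside the 8.44% and 10.9%. The fitted members had a median log2 difference (CFLARs Tg minus wild-type) of -0.18, against -0.010 for all fitted genes, and a median size of difference of 0.33, against 0.15. Both CFLARs Tg arrays lay above both wild-type arrays in 16 fitted members and below both in 24, against 32% and 37.6% of all fitted genes.

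The calls depended on having both wild-type arrays. Without wild-type replicate 1, 0 of the 48 members passed (limma), against 0.301% of all genes, and 17 had an unadjusted p under 0.05. Without wild-type replicate 2, 0 passed (limma), against 0.287%, and 20 had an unadjusted p under 0.05. The 16 called members kept the sign of their difference in both cases, which had to follow because their groups did not overlap. Without CFLARs Tg replicate 1, 10 rose and 24 fell, with 47% of all genes called, and the members' median was -0.22. Without CFLARs Tg replicate 2, 9 rose and 15 fell, with 32.4% of all genes called, and the median was -0.094.

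By family, the Slc1a genes lay highest, with 2 rises and 0 falls among 4 fitted (limma; all 4 differences were above 0) and a median difference of 0.28. Among the fitted members, 2 had a group mean under the filter. Slc1a3 passed it through its CFLARs Tg values, which bears on the sign of its difference, and Slc7a3 through its wild-type values. The Slc6a family had 1 rise and 3 falls (Slc6a20a, Slc6a19 and Slc6a19os, the last not a transporter gene) among 11 fitted and a median of -0.29. In the Slc7a family 3 rose and 2 fell among 13, with a median of -0.18, and in the Slc38a family 0 rose and 2 fell among 9, with a median of -0.23. The Slc15a family, with 1 rise and 1 fall among 4, spanned -1.09 to 1.02. Of the 2 fitted Slc36a genes 1 fell, and 0 of the 2 Slc3a and 3 Slc43a genes passed (limma; 1 and 3 of them had an unadjusted p under 0.05).

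**Figure D1:**
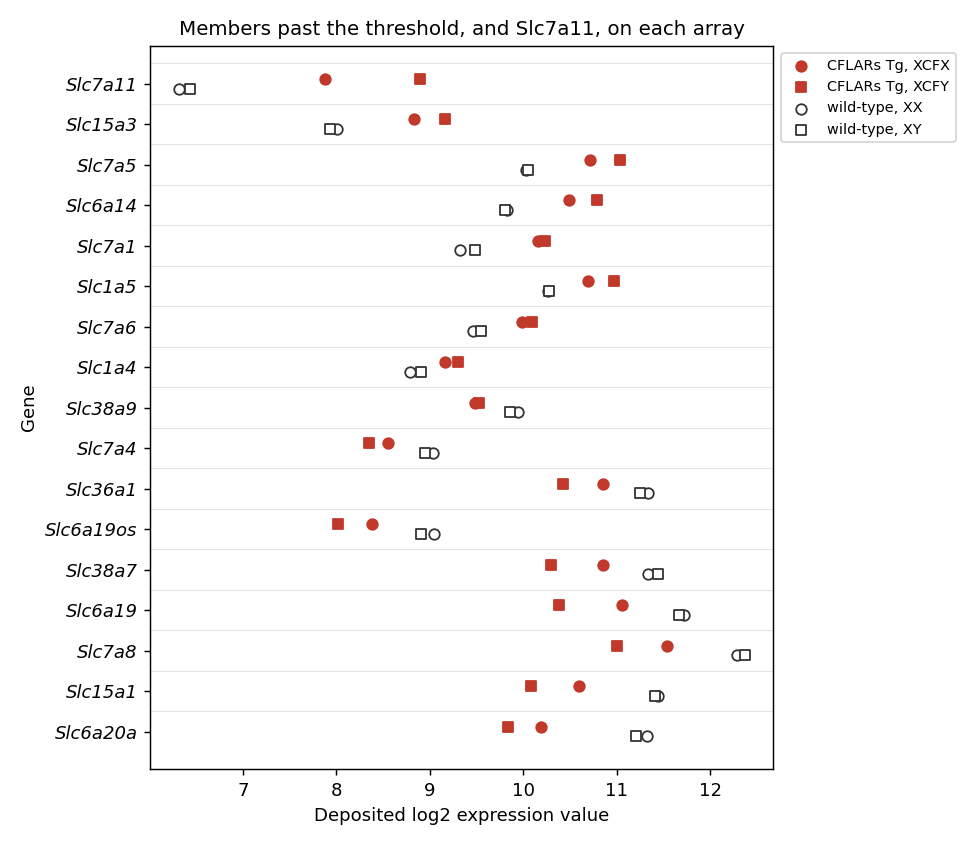
Deposited log2 value (x axis) of the 16 members past the threshold, Slc6a19os among them, and of Slc7a11 (y axis, ordered by difference) on each of the 4 arrays, filled symbols for CFLARs Tg and open symbols for wild-type, circles for the XCFX and XX arrays and squares for the XCFY and XY arrays. The CFLARs Tg and wild-type symbols do not overlap in any of these genes.

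Among the genes of brush border uptake, the imino acid transporter gene Slc6a20a fell most. Its log2 value was 10.20 and 9.83 on the XCFX and XCFY arrays, against 11.32 and 11.21 on the XX and XY arrays, a 2.38-fold lower level (log2 difference -1.25, SE 0.14, limma adjusted p = 0.0179). Both CFLARs Tg arrays lay more than 1 unit below the nearest wild-type array. Its near copy Slc6a20b, at 7.11 and 6.87 against 7.27 and 7.30, was under the filter.

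Slc15a1, the peptide transporter gene, read 10.60 and 10.09 in CFLARs Tg, against 11.45 and 11.41 in wild-type. The groups were well apart, and the level was 2.12-fold lower (log2 difference -1.09, SE 0.18, limma adjusted p = 0.0266). Slc6a19 read 11.05 and 10.39 in CFLARs Tg, against 11.72 and 11.67 in wild-type (log2 difference -0.97, SE 0.23, limma adjusted p = 0.0482). The XCFY array was the lowest, and without it the Slc6a19 difference was -0.64. Slc6a19os fell by 0.78 on the log2 scale (SE 0.14, limma adjusted p = 0.0301), at 8.38 and 8.02 against 9.05 and 8.91. Its symbol marks it as an opposite-strand gene of Slc6a19, and whether these probe sets tell the strands apart is not given in the sources used here. Slc36a1, which encodes a proton-coupled transporter of small amino acids found at the brush border and on lysosomes, read 10.86 and 10.43 in CFLARs Tg, against 11.34 and 11.25 in wild-type. Its fall, of 0.65 on the log2 scale (SE 0.15), stood at the threshold itself (limma adjusted p = 0.0499).

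The other apical genes differed less or rose. Slc3a1 and Slc7a9 encode the heavy and light chain of the cystine and cationic amino acid transporter that is defective in cystinuria. Slc3a1 read 12.57 and 11.71 in CFLARs Tg, against 12.59 and 12.54 in wild-type, a difference of -0.43 (limma adjusted p = 0.332). The XCFX value lay within the wild-type range and the XCFY value below it. Slc7a9 read 11.74 and 11.26 in CFLARs Tg, against 11.92 and 11.94 in wild-type, and its groups did not overlap (limma adjusted p = 0.133). Slc1a1, the glutamate transporter gene, and Slc6a6, the taurine transporter gene, differed by 0.15 and -0.25 (limma adjusted p = 0.13 and 0.172).

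Slc6a14 encodes a sodium- and chloride-driven transporter of neutral and cationic amino acids that is best known from the colon and lung. It read 10.49 and 10.79 in CFLARs Tg, against 9.83 and 9.80 in wild-type, a 1.77-fold rise (log2 difference 0.82, SE 0.11, limma adjusted p = 0.0219). Slc1a5, the glutamine transporter gene, read 10.70 and 10.97 in CFLARs Tg, against 10.27 and 10.28 in wild-type (log2 difference 0.56, SE 0.10, limma adjusted p = 0.0327). In both genes the CFLARs Tg arrays lay above the wild-type arrays without overlap. Over the brush border list, 10 of 11 genes were fitted, 4 fell and 2 rose, with a median difference of -0.43. The median was -0.15 without CFLARs Tg replicate 2 and -0.76 without CFLARs Tg replicate 1. Without the filter 2 fell, Slc6a20a and Slc15a1, with 12% of all genes called in either direction. Some genes stand in more than 1 list, Slc1a5 and Slc36a1 among them.

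On the basolateral side the light chains divided. Slc7a8 encodes LAT2, an exchanger of neutral amino acids. It read 11.54 and 10.999 in CFLARs Tg, against 12.29 and 12.37 in wild-type, a 2.09-fold lower level (log2 difference -1.06, SE 0.19, limma adjusted p = 0.0303). Slc7a6, which encodes an exchanger of cationic against neutral amino acids, read 9.99 and 10.09 in CFLARs Tg, against 9.46 and 9.54 in wild-type (log2 difference 0.54, SE 0.07, limma adjusted p = 0.0199). Its close relative Slc7a7, the gene of lysinuric protein intolerance in humans, went the other way without passing the test, at 11.94 and 11.76 against 12.15 and 12.17 (limma adjusted p = 0.0601). Slc3a2, the shared heavy chain, read 12.87 and 12.62 in CFLARs Tg, against 13.03 and 13.08 in wild-type, a difference of -0.31 (limma adjusted p = 0.0956). Slc43a2, a facilitated transporter of large neutral amino acids, differed by -0.75 (SE 0.24, limma adjusted p = 0.0897), with 10.47 and 9.76 against 10.89 and 10.84. Over the 6 genes of this list, 1 rose and 1 fell, with a median difference of -0.31, which was -0.20 without CFLARs Tg replicate 2.

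**Figure D2:**
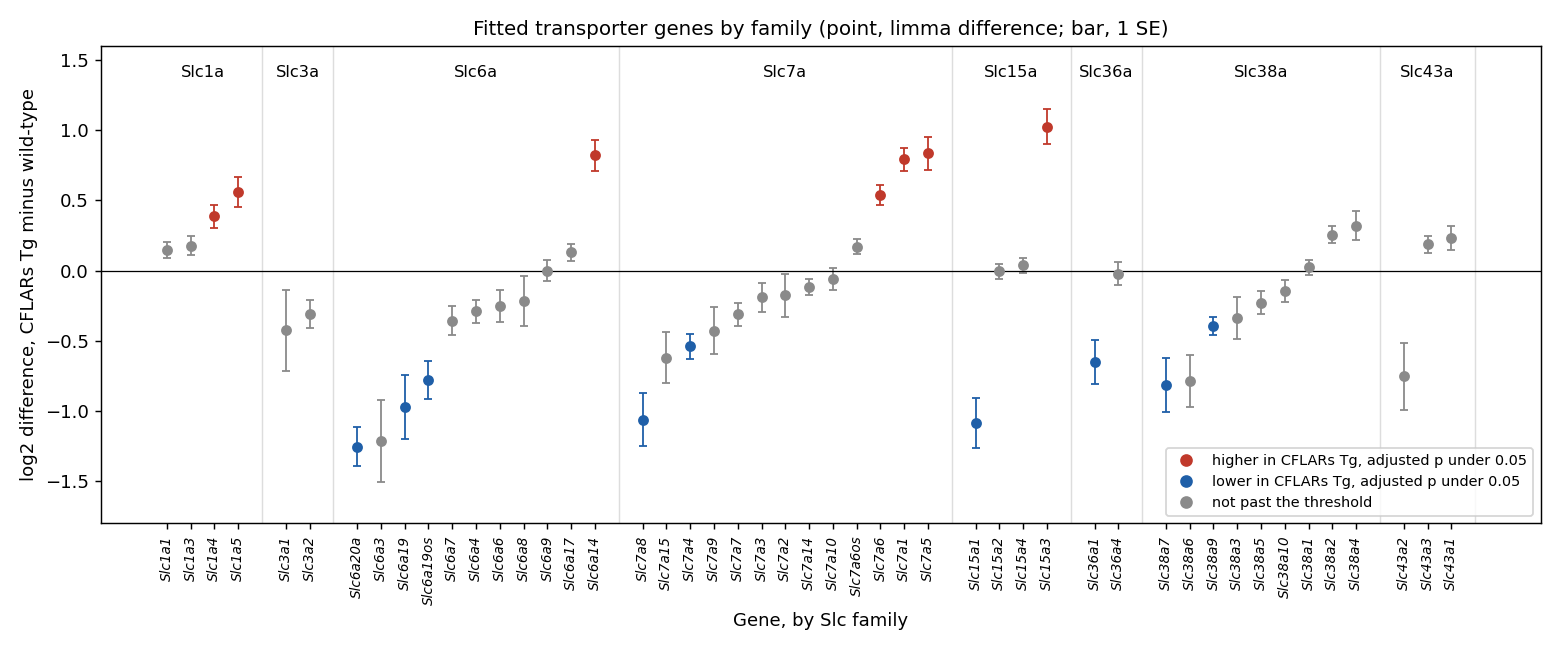
Log2 difference, CFLARs Tg minus wild-type (y axis, points with bars of 1 SE from limma), of the 48 fitted genes, ordered within each Slc family (x axis) and coloured by the call at an adjusted p of 0.05. All 4 fitted Slc1a genes lie above 0, both Slc3a genes below it, and the Slc6a, Slc7a and Slc15a families hold genes called in each direction. Slc1a3 passed the filter through its CFLARs Tg values.

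Transporters known as targets of the amino acid response rose in part. Slc7a11, the cystine and glutamate exchanger that supplies cysteine for glutathione, read 7.88 and 8.90 in CFLARs Tg, against 6.31 and 6.43 in wild-type. The wild-type readings lay within the range of 5.13 to 6.78 that silent sex-linked genes gave on these arrays, so the fold has no exact value. In a fit of all 19938 genes without the filter, where 5.31% of genes rose, Slc7a11 rose (log2 difference 2.01, SE 0.33, limma adjusted p = 0.03). Set against the upper end of that range, its mean level over the CFLARs Tg arrays was at least 3.04-fold higher. The XCFX array alone would give a smaller fold. The XCFY value was the higher of the CFLARs Tg values by 1 unit, and the difference was 2.52 without CFLARs Tg replicate 1 and 1.51 without replicate 2.

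Slc7a5, the LAT1 light chain gene, read 10.72 and 11.03 in CFLARs Tg, against 10.03 and 10.05 in wild-type, a 1.78-fold rise (log2 difference 0.83, SE 0.12, limma adjusted p = 0.0228). Slc7a1, the cationic amino acid transporter gene CAT1, read 10.16 and 10.23 in CFLARs Tg, against 9.32 and 9.48 in wild-type, a 1.73-fold rise (log2 difference 0.79, SE 0.08, limma adjusted p = 0.0168). Its CFLARs Tg arrays differed from each other by less than its wild-type arrays did. Slc1a4, a transporter of alanine, serine and cysteine, rose by 0.39 (SE 0.08, limma adjusted p = 0.0395), at 9.16 and 9.31 against 8.79 and 8.90. Slc38a2, the SNAT2 gene that cells raise on amino acid shortage, lay just outside the threshold at 12.09 and 12.17 against 11.87 and 11.88 (log2 difference 0.25, SE 0.06, limma adjusted p = 0.0503), and it passed in several other settings. Slc7a3, Slc7a2, Slc6a9 and Slc43a1 differed by -0.19, -0.18, -0.00068 and 0.23 and did not pass. Over this list, 10 of 11 genes were fitted, 4 rose and 0 fell (limma; Slc3a2 alone lay lower with an unadjusted p under 0.05), with a median difference of 0.24.

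The 20 other genes of the amino acid response were all fitted. In this list 5 rose and 2 fell, against 8.44% and 10.9% of all fitted genes, so the falls were near the general share. The median difference was 0.12, and 0.035 without CFLARs Tg replicate 2. Atf4 itself read 9.82 and 9.84 in CFLARs Tg, against 9.55 and 9.54 in wild-type, a rise of 0.28 (SE 0.05, limma adjusted p = 0.0345, and 0.0508 with sex type as a block). Asparagine synthetase (Asns) rose by 1.08, the folate enzyme gene Mthfd2 by 0.995, the transcription factor genes Atf3 by 1.66 and Cebpb by 0.30. The stress sensor gene Sesn2 fell by 0.60 and the proline synthesis gene Aldh18a1 fell by 0.67, while Psat1 differed by 1.06 without passing (limma adjusted p = 0.0638). Trib3 and Ddit3, which ATF4 also activates, differed by -0.0085 and -0.34 (limma adjusted p = 0.925 and 0.224).

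Lysosomal members went both ways. Slc15a3 encodes a peptide and histidine transporter of lysosomes that is known from macrophages and dendritic cells, and it rose most of all fitted members. It read 8.83 and 9.16 in CFLARs Tg, against 8.01 and 7.93 in wild-type, a 2.03-fold rise (log2 difference 1.02, SE 0.12, limma adjusted p = 0.0194). Its relative Slc15a4 read 8.80 on both CFLARs Tg arrays, against 8.78 and 8.75 in wild-type, a difference of 0.038 (limma adjusted p = 0.65). Monocyte and macrophage markers lay higher too, but unevenly. Of 7 fitted markers 0 passed (limma; 4 had an unadjusted p under 0.05, Itgam, Cd14, Lyz2 and Fcgr3). Cd14 had a wild-type mean under the filter and so passed it through its CFLARs Tg values. Csf1r and Adgre1 differed by 0.044 and 0.15, with overlap between the groups. The summed level of the 8 on the array was 5105 and 7614 in CFLARs Tg, against 4250 and 4229 in wild-type. The 5 fitted neutrophil markers had wild-type means under the filter and so passed it through their CFLARs Tg values, and in the fit of all genes 4 of the 8 neutrophil markers rose. The summed level of these 8 was 2553 and 5707 in CFLARs Tg, against 980 and 1064 in wild-type. The part of these cells in the Slc15a3 result was not tested.

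Slc38a7, which exports glutamine from lysosomes, read 10.85 and 10.30 in CFLARs Tg, against 11.34 and 11.44 in wild-type (log2 difference -0.81, SE 0.19, limma adjusted p = 0.0497). It lay at the threshold, and its difference was -0.54 without the XCFY array. Slc38a9, the arginine-sensing transporter that acts on mTORC1, read 9.48 and 9.53 in CFLARs Tg, against 9.95 and 9.85 in wild-type (log2 difference -0.40, SE 0.06, limma adjusted p = 0.0264). A second probe set of Slc38a9 differed by -0.14. Slc36a4, the lysosomal relative of Slc36a1, read 9.88 and 10.07 against 10.01 and 9.98 and overlapped between the groups. Slc7a14, another member of the list, differed by -0.11 (limma adjusted p = 0.215). Over the 7 genes of this list, 3 fell and 1 rose, against 10.9% and 8.44% of all fitted genes. Without the filter 1 fell, Slc38a9, and 1 rose, with 12% of all genes called in either direction.

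The Slc6a family also holds transporters of neurotransmitters and osmolytes. In the list of 14 such genes, 13 were on the array and 7 were fitted, and 0 passed (limma; 3 had an unadjusted p under 0.05, Slc6a3, Slc6a4 and Slc6a7). Slc6a3, the dopamine transporter gene, stood at 8.96 and 8.09 in CFLARs Tg, against 9.68 and 9.80 in wild-type (log2 difference -1.22, SE 0.29, limma adjusted p = 0.0523). The groups did not overlap, and the spread between the CFLARs Tg arrays was large. Slc6a4, the serotonin transporter gene of the epithelium, differed by -0.29 (limma adjusted p = 0.0704), at 9.65 and 9.47 against 9.88 and 9.82. Slc6a8, the creatine transporter gene, read 11.75 and 11.23 in CFLARs Tg, against 11.72 and 11.69 in wild-type, and the XCFY array alone lay below the wild-type range. Slc1a3, a glutamate transporter gene, differed by 0.18 (limma adjusted p = 0.136). Markers of enteric neurons and glia changed in 0 of 5 fitted genes (limma; 1, Ret, had an unadjusted p under 0.05).

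Of the remaining members, Slc7a4, an orphan member of its family, fell by 0.54 (SE 0.09, limma adjusted p = 0.0274), at 8.55 and 8.35 in CFLARs Tg against 9.04 and 8.95 in wild-type. Slc38a6 read 10.37 and 9.84 in CFLARs Tg, against 10.96 and 10.83 in wild-type, a difference of -0.79 (limma adjusted p = 0.0508), and Slc7a15 differed by -0.62 (limma adjusted p = 0.0755). Neither passed, and the groups did not overlap in either. The amino acid transporter genes Slc38a4, Slc38a3, Slc38a5 and Slc38a10 differed by 0.32, -0.34, -0.23 and -0.15, and Slc6a7, a proline transporter gene, by -0.36. Slc38a1 read between 11.88 and 11.93 on all 4 arrays, while its second probe set differed by -0.20, and Slc15a2, the second peptide transporter gene, between 8.48 and 8.50. Besides Slc7a11, the 20 members under the filter differed by at most 0.29 in size.

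**Figure D3:**
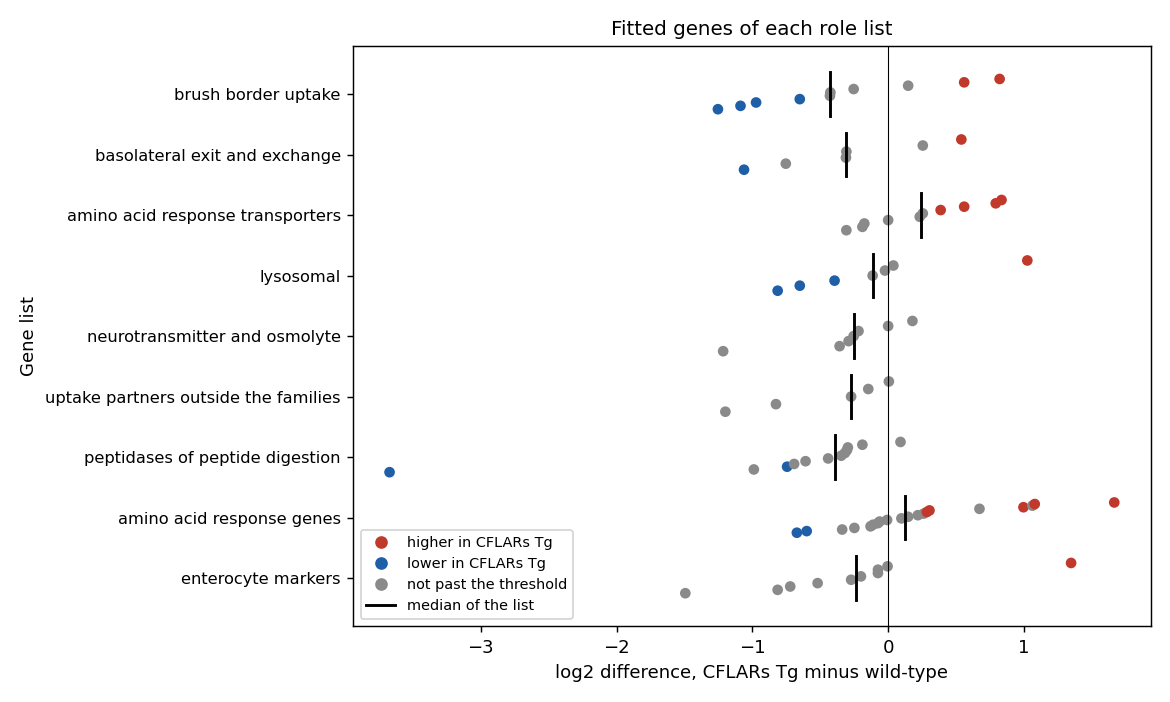
Log2 difference, CFLARs Tg minus wild-type (x axis), of the fitted genes in 5 transporter role lists, 3 lists outside the families and the enterocyte markers (y axis), with 1 point for each gene coloured by its call and a black line at the median of the list. The brush border list has 4 genes called lower and 2 called higher around a median of -0.43, which was -0.15 without CFLARs Tg replicate 2, and the amino acid response transporters have 4 called higher and 0 called lower around a median of 0.24.

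Genes that work with these transporters mostly lay lower. Of the uptake partners, 0 of 5 fitted genes passed (limma; 2 had an unadjusted p under 0.05, against 5457 of all 13956 fitted genes). Pdzk1, a scaffold of brush border transporters, differed by -1.20 (limma adjusted p = 0.0743), and Slc16a10, the basolateral carrier of aromatic amino acids, by -0.83 (limma adjusted p = 0.0552). The scaffold gene Slc9a3r1 differed by -0.27 and the sodium pump subunit gene Atp1b1 by 0.0047. Among the peptidases that release amino acids and short peptides, 2 of 12 fitted genes fell, against 10.9% of all fitted genes. The difference was below 0 in 11 of 12, against 52.4% of all fitted genes. The dipeptidase gene Dpep1 fell by 0.74 (SE 0.10, limma adjusted p = 0.0208) and Mme, the neprilysin gene, fell by 3.67 (SE 0.83, limma adjusted p = 0.0459), while Ace differed by -0.99 (limma adjusted p = 0.1). Mme read 9.41 and 6.89 in CFLARs Tg, against 11.84 and 11.80 in wild-type, so the CFLARs Tg arrays were far apart. Its difference was -2.41 without CFLARs Tg replicate 2, and it lost its call without the filter (limma adjusted p = 0.0507), which left Dpep1 as the peptidase that fell.

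Enterocyte markers mostly lay lower without passing. Of 10 fitted markers, 1 rose and 0 fell (limma; 4 lay lower with an unadjusted p under 0.05), with a median difference of -0.24, which was -0.11 without CFLARs Tg replicate 2. Villin (Vil1), Cdh17 and Epcam differed by -0.076, -0.0051 and -0.076, Krt20 rose by 1.35, and Lct, the lactase gene, differed by -1.49 (limma adjusted p = 0.103). Their summed level was 93725 and 69009 in CFLARs Tg, against 103775 and 103749 in wild-type. In whole intestine, fewer cells of a type and less RNA per cell cannot be told apart, and the part of cell composition in the falls was not tested. The wild-type XY array stood apart in pancreatic acinar markers, with a summed level of 11025, against 2399 on the XX array and 2142 and 1363 in CFLARs Tg. Liver markers summed to 18565 and 11995 in CFLARs Tg, against 24198 and 29627 in wild-type. Cps1 was the highest of them on every array, at 13.31 and 13.08 against 13.53 and 13.48, and weighs most in the sums. Alb read 11.20 and 6.57 against 11.47 and 12.72, a wider range than that of Cps1, so the sums are no plain measure of liver tissue. The median difference of the 8 fitted liver markers was -0.25 for XCFX minus XX and -2.57 for XCFY minus XY. Without the XY array, the 16 called differences ran from -1.31 to 0.98, against -1.25 to 1.02 with it.

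The size of the differences was uneven between the pairs of arrays. These are the XCFX minus XX and the XCFY minus XY difference, read from the title notation, and they have no test because each side is 1 array. All 16 called members had the same sign in both pairs. So did all 1178 genes called higher and all 1517 called lower in the series, so this is no trait of the members. The XCFY minus XY difference was the larger in size in 8 of 9 members that fell, with a median of -1.14, against -0.66 for XCFX minus XX. Slc38a9 was the exception, at -0.32 against -0.47. Among the 7 members that rose, it was the larger in 6, with a median of 0.75 against 0.66, and Slc7a1 was the exception. Over all fitted genes, the XCFY minus XY difference was the larger in 8480 of 13956. It was the larger in 994 of the 1517 genes called lower and in 839 of the 1178 called higher.

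**Figure D4:**
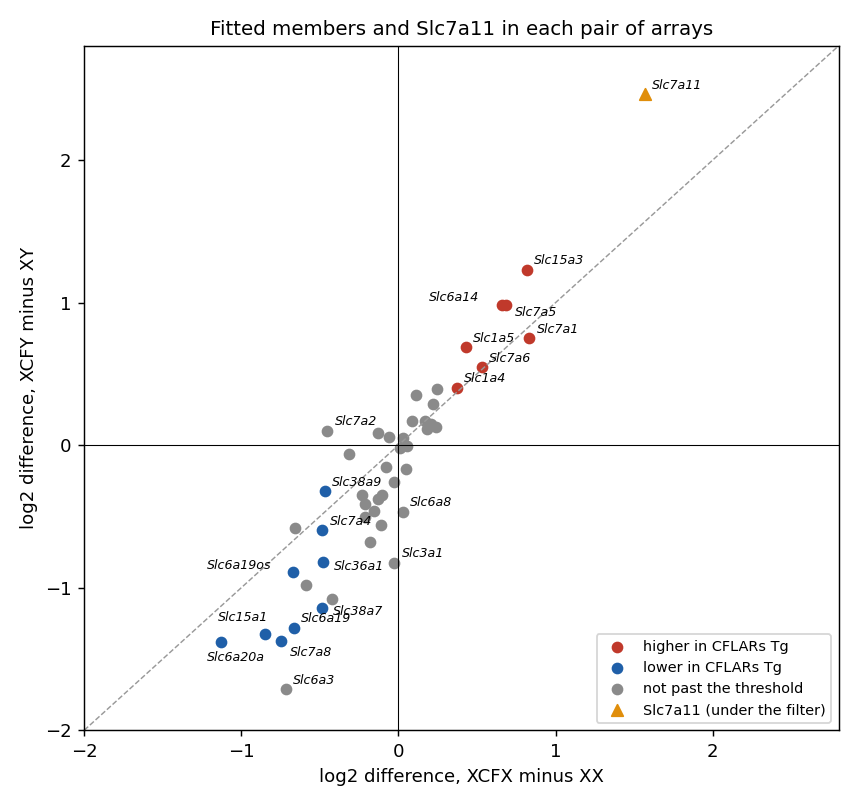
Log2 difference of the XCFY minus XY pair (y axis) against that of the XCFX minus XX pair (x axis) for the 48 fitted members and Slc7a11, with 1 point for each gene coloured by its call and a dashed line where both differences are equal. The called genes lie in the lower left and upper right of the plot, and 8 of the 9 genes called lower lie below the dashed line.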

How the data were processed

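The values are the log2 expression values deposited by the authors, 1 for each probe set and array. Summarisation and normalization are not given in the sources used here, and the values were used as deposited. The 28856 probe sets had array medians between 8.31 and 8.33. Probe sets with a single symbol in the platform annotation (21789) were kept, and a gene was represented by its probe set of highest mean across the 4 arrays. The 30% of genes with the lowest means (under 7.48) were left out, and 13956 were fitted with limma 3.58.1 in R 4.3.3 (lmFit and eBayes, no covariates, 2 residual and 2.64 prior degrees of freedom), CFLARs Tg minus wild-type, with Benjamini-Hochberg adjustment over all fitted genes at a threshold of 0.05. Values of a group are given array by array (XCFX and XCFY, against XX and XY). Summed levels of markers add 2 to the power of the log2 value. The script was tested on simulated data.

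The members and the lists were chosen with earlier results of these data known, so no list was tested. Genes were named by a rule: members past the threshold, members of the role lists, other members among the 10 largest differences each way, and listed genes outside the families that passed or had the 3 largest differences. Markers, and Trib3, Ddit3, Atp1b1, Slc7a15, Slc15a2, Slc38a1, Slc38a3, Slc38a5 and Slc38a10 were named beside them after their values were seen. Alternatives were the filter, normalization, probe set choice, variance trend, a minimum difference, sex type as a block, and each array left out. The same settings were applied to the lists and to called genes outside the families after the data were seen. The number of arrays limits the precision. The label check genes followed the titles: Xist and 3 Y-linked genes read 9.08 to 12.9 where they should be present and 5.13 to 6.78 elsewhere, and Cflar differed by 0.085 (adjusted p = 0.498), which does not check the genotype, since the part of the transgene its probe sets match is not known here.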

Additional observations from a re-analysis of the deposited data

How the results depend on the processing

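The counts of 7 members that rose and 9 that fell moved to 8 and 6 without a filter, to 7 and 8 with the lowest 50% of genes left out, to 7 and 6 after quantile normalization, to 8 and 6 after median centring, to 8 and 7 with the median of probe sets and to 8 and 9 with an intensity trend. Slc6a19, Slc36a1 and Slc38a7 lost their call without a filter, after quantile normalization and after median centring (adjusted p from 0.0503 to 0.0561), and Slc36a1 and Slc38a7 also with the median of probe sets (0.0503 and 0.0501). Of all genes, 12% were called without a filter, 23% with the lowest 50% left out and 19.1% to 19.4% in the others of these settings. In limma's treat, which asks for more than 0.5 on the log2 scale, 0 rose and 0 fell, with 0.451% of all genes called. Of the members, 10 had an unadjusted p under 0.05 in treat. With sex type as a replicate block, a pairing read from the titles, 8 rose and 13 fell, with 22.3% of all genes called. The calls it added were Slc38a4 among the rises and Slc6a3, Slc7a15, Slc38a6 and Slc43a2 among the falls. When each array was left out in turn, the count of rises ran from 0 to 10, the count of falls from 0 to 24 and the median difference of -0.18 from -0.22 to -0.094, and the cause was not tested. In those fits 1 array stands for its genotype and is assumed to vary like the other group. The called genes outside the families that the report names also lost their call without either wild-type array. Slc6a19 and Slc38a7 moved by over 1.5 times without CFLARs Tg replicate 2, to -0.64 and -0.54. The median was -0.046 without a filter, where all 69 members were fitted. Slc7a11 kept its direction in every setting and lost its call without wild-type replicate 1 or 2 and against the minimum difference (adjusted p = 0.189, 0.15 and 0.301). Directions turned only in members that had not passed: Slc6a9 was 0.021 after quantile normalization, Slc38a1 was -0.089 with the median of probe sets, and with single arrays left out Slc3a1 ran from -0.85 to 0.0017, Slc6a8 from -0.48 to 0.042, Slc6a9 from -0.078 to 0.076, Slc7a2 from -0.39 to 0.035, Slc7a10 from -0.13 to 0.0073, Slc15a2 from -0.015 to 0.0047 and Slc36a4 from -0.12 to 0.069.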
